A study of Mus musculus with 2 samples.

Results

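Retnlg-high neutrophils were barcodes with transcripts of neutrophil alarmins, the G-CSF receptor and Retnlg, and they numbered 95 of 22472 kept cells from mouse pancreatic tumours. A kept cell had at least 500 genes and at most 15% of its unique molecular identifiers (UMIs, each counted as 1 captured mRNA molecule) from mitochondrial genes. A member then held at least 10 UMIs of S100a8 and S100a9 together, at least 1 of Csf3r, at least 3 of Retnlg, at most 2 of the complement genes C1qa, C1qb and C1qc together and at most 5 of the keratin genes Krt8, Krt18 and Krt19 together. Cells that met all of this but held 2 or fewer Retnlg UMIs, 185 in number, are called Retnlg-low neutrophils here. Members were thus chosen by measured values of these genes in the same cells, and those levels describe the choice and are not findings.

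The study implanted KPC mouse pancreatic cancer cells into the pancreas and took the tumours on day 21. Live cells were profiled by droplet single-cell RNA sequencing, which counts the 3′ ends of transcripts. The control mice were Porcnfl/fl littermates, labelled WT, and the knockout mice were Csf1r-Cre;Porcnfl/fl, so both groups carried the floxed Porcn alleles and the knockout group alone carried Cre under the Csf1r promoter, which is active in macrophages and other myeloid cells. Tumours of 5 mice were pooled into 1 library per genotype. With 1 library per group no test between genotypes was possible. The 95% intervals in the text are exact and cover counting error only. They say nothing of variation between mice or, for gene levels, of uneven counts between cells.

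Neutrophils load their granules in sequence while they mature in the bone marrow. Azurophil granule proteins such as myeloperoxidase are transcribed first, specific granule proteins such as those of Camp, Ngp and Ltf next, and gelatinase granule proteins and surface receptors last, and transcription of the specific granule genes is largely off in mature cells. Retnlg, which encodes a small secreted protein of the resistin family, is known as a transcript of mature circulating mouse neutrophils, while neutrophils within tumours are known for transcripts of cytokines and chemokines such as Il1b and Ccl3.

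The promoters of Retnlg and of the 3 granule genes that divide the members are shown because these 4 genes define the cells described. Each is 300 bases, from 250 before to 50 after the RefSeq gene start on build GRCm38.p6, read 5′ to 3′ on the gene's strand. Capitals mark matches to TTNNGNAA, a C/EBP-type motif searched on both strands with 0 mismatches, which 40.7% of 32851 promoters of this length held. Retnlg lies on the plus strand (promoter chr16:48872358-48872657), Camp on the minus strand (chr9:109849407-109849706), Ngp on the plus strand (chr9:110419558-110419857) and Ltf on the plus strand (chr9:111019042-111019341).
Retnlg: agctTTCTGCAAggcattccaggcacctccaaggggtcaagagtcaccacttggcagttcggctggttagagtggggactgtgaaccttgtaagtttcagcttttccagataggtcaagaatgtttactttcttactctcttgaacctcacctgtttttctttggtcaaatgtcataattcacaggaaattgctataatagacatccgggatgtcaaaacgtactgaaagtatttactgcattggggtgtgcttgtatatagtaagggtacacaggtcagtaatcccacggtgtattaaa
Camp: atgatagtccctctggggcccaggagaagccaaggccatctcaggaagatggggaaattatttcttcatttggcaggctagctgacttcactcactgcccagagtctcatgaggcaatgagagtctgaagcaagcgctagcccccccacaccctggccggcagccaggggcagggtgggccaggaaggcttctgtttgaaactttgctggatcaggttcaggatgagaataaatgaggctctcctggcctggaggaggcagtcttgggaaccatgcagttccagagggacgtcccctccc
Ngp: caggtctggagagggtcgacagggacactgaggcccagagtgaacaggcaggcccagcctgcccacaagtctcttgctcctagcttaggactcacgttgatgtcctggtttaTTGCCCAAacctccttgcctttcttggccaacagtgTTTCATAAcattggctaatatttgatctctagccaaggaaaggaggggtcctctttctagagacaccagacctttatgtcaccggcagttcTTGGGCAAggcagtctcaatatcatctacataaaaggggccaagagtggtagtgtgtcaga
Ltf: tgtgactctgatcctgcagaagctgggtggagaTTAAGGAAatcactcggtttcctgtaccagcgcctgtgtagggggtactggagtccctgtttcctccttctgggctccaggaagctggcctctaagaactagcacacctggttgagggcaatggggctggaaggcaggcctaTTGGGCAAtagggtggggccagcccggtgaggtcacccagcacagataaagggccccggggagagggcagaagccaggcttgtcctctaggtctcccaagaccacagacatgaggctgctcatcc
Ngp held 3 matches, at 138, 102 and 11 bases before its start, Ltf held 2, at 217 and 75 bases, Retnlg held 1 at 246 bases, and these letters were not in the Camp window. A match describes the letters and is no evidence of binding.

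Members were 68 of 11664 kept cells in the control library, 0.583% (Clopper-Pearson interval 0.453 to 0.739%), and 27 of 10808 in the knockout library, 0.250% (0.165 to 0.363%). The knockout share was 0.429 times the control share (0.264 to 0.678). Neutrophils by the rest of the rule, Retnlg-high and Retnlg-low together, were 186 of the control cells, 1.59% (1.38 to 1.84%), and 94 of the knockout cells, 0.870% (0.703 to 1.06%), a ratio of 0.545 (0.421 to 0.703). Among these neutrophils, members made up 36.6% in control (29.6 to 43.9%) and 28.7% in knockout (19.9 to 39%), and the interval of the ratio, 0.786, ran from 0.484 to 1.24. The lower count of members in the knockout library thus went with a lower count of all neutrophils, and a difference in the Retnlg-high portion was not detectable at this depth. The loaded cell mixture and the count of other cells set these shares as well, and their part was not tested.

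The libraries held 13766 and 12251 barcodes and 173934025 and 137527647 UMIs, with medians of 12235 and 10321 UMIs per kept cell in control and knockout. Members were shallower than most kept cells, with a lowest, median and highest of 866, 2032.5 and 8701 UMIs in control and 1070, 2009 and 6034 in knockout. The libraries shared 46 barcode sequences over all their barcodes, and 1 member of each library carried one. Without those members the knockout share was 0.419 times the control share. A doublet caller marked 148 control (1.27%) and 341 knockout cells (3.16%), of which 1 was a control member and none was a knockout member.

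At the Retnlg threshold, 17 control and 7 knockout cells lay just outside with 2 Retnlg UMIs, and 2 and 6 lay just inside with 3. The cells at 2 UMIs had median sums of S100a8 and S100a9 of 59 and 39 UMIs, and the cells at 3 had 197.5 and 54. Retnlg itself (chr16:48872621-48874496, plus strand) ran from 3 through a median of 11.5 to 373 UMIs per control member and from 3 through 8 to 276 per knockout member. Counts were low in most members, with a long upper tail in each library.

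Cxcr2, the receptor for neutrophil-attracting CXC chemokines and the marker that the rule did not read, was found in 61 of 68 control and 21 of 27 knockout members. It was found in 76 of 11478 and 65 of 10714 kept cells that were not neutrophils by the rest of the rule. Members of both libraries thus held a neutrophil marker other than those that chose them. Of the markers of other cells, the mast cell and basophil list (7 genes) and the erythroid and platelet list (8 genes) were at 0 UMIs in all members. The T cell list summed to 3 UMIs in control and 1 in knockout members, the NK cell list to 1 and 0, and the eosinophil list to 5 and 1. Macrophage markers (12 genes, 8 and 4 of them detected) stood at 176 and 347 UMIs per 1000000 of the members' total (CPM), against 363 and 580 CPM over all kept cells. Epithelial and tumour markers stood at 253 and 217 CPM, against 5637 and 5102 CPM over all kept cells. The epithelial list includes Krt8, Krt18 and Krt19, and the macrophage list includes C1qa, C1qb and C1qc, all capped by the rule. In members these keratins summed to 38 UMIs in control and 15 in knockout. The contrasts of both lists with all kept cells are thus set in large part by the choice of members. B and plasma cell markers stood at 94.1 and 318 CPM, against 1585 and 6584 CPM, so this list was higher in knockout members as it was in the whole knockout library.

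Porcn, the acyltransferase that lipidates Wnt proteins before secretion and the gene targeted in the knockout, had 0 UMIs in the members of both libraries, which allows up to 17.6 CPM in control and 43.3 CPM in knockout. The deletion could not be read in these cells. Of 21 genes for Wnt ligands and their secretion, 2 were detected in members of each library, with 15 UMIs in all in control and 7 in knockout.

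Camp, Ngp or Ltf transcripts were present in close portions of members in the 2 libraries. Camp encodes the antimicrobial peptide cathelicidin, Ngp a small protein of the same granules, and Ltf the iron-binding lactotransferrin. Of the 68 control members, 20 held at least 1 UMI of the 3 genes (29.4%, interval 19.0 to 41.7%), and of the 27 knockout members 8 did (29.6%, 13.8 to 50.2%), a ratio of 1.01 (0.384 to 2.39), an interval that leaves room for a difference in either direction. Requiring 3 UMIs left 18 control members (26.5%) and 6 knockout members (22.2%). After each cell was thinned to 1000 UMIs, 19 of 66 control members (28.8%) and 8 of 27 knockout members (29.6%) held one, and 2 control members were too shallow to thin. The portion itself moved with depth and with the Retnlg minimum: among members with at least 1000 genes it was 64% in control and 66.7% in knockout, and among members with at least 10 Retnlg UMIs it was 44.7 and 53.8%. Without the members whose barcode both libraries held it was 28.4 and 26.9%. T cells and epithelial cells, which should lack these genes, gave the background. In T cells the share with a UMI was 6.29% in control (10 of 159, median 3508 UMIs) and 0.508% in knockout (8 of 1576, median 3649.5 UMIs), or 3.16 and 0.191% after thinning. The control value is not free RNA alone, since 4 of the 159 T cells held 3 or more granule UMIs, 1 of them 1948, with up to 4286 UMIs of S100a8 and S100a9 in a cell. In epithelial cells, of median 16104 and 17167 UMIs, it was 3.71 and 1.25%, or 0.182 and 0.0437% after thinning. The members' shares were above these levels in both libraries. Retnlg-low neutrophils held such a UMI in 25 of 118 control cells (21.2%, 14.2 to 29.7%). In knockout 11 of 67 did (16.4%, 8.49 to 27.5%). These intervals overlapped those of the members, so a granule UMI was not particular to members.

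Ngp was the gene that every one of these granule-bearing members held. Ngp was found in 20 control and 8 knockout members, Camp in 15 and 6, and Ltf in 9 and 5. All 3 genes were found together in 8 control and 4 knockout members, 2 of them in 8 and 3, and 1 of them in 4 and 1. The sum of the 3 genes ran from 1 through a median of 21 to 619 UMIs per granule-bearing control member and from 1 through 53.5 to 498 per knockout member. The sum was 100 UMIs or more in 7 control and 3 knockout members, 3 to 99 in 11 and 3, and 1 or 2 in 2 and 2. A single cell carried 24.4% of the summed granule UMIs in control and 54.3% in knockout, where it held 60.0% of Camp and 75% of Ltf, so the knockout levels of these genes rest largely on that cell.

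The granule-bearing members were also the ones with most Retnlg. Their Retnlg count ran from 4 through a median of 107 to 373 UMIs in control and from 3 through 126.5 to 276 in knockout, against medians of 9 and 4 in members without a granule UMI. Of members with 100 or more Retnlg UMIs, 11 of 12 in control and 5 of 5 in knockout held a granule UMI, and below that 9 of 56 and 3 of 22 did. They were also deeper, at medians of 4073.5 and 4231 UMIs against 1693.5 and 1778, and how far depth moves with the Retnlg count was not tested. In control the highest granule sums did not lie in the highest Retnlg cells. The 7 control members with 100 or more granule UMIs held 4 to 107 Retnlg UMIs (median 54), while the 11 with 3 to 99 granule UMIs held 11 to 373 (median 232). In knockout the 3 members with 100 or more granule UMIs held 120 to 265 Retnlg UMIs (median 133). The 3 with 3 to 99 granule UMIs held 69 to 276 (median 188). These ranges overlapped, and so few cells cannot show whether the ordering held there.

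**Figure D1:**
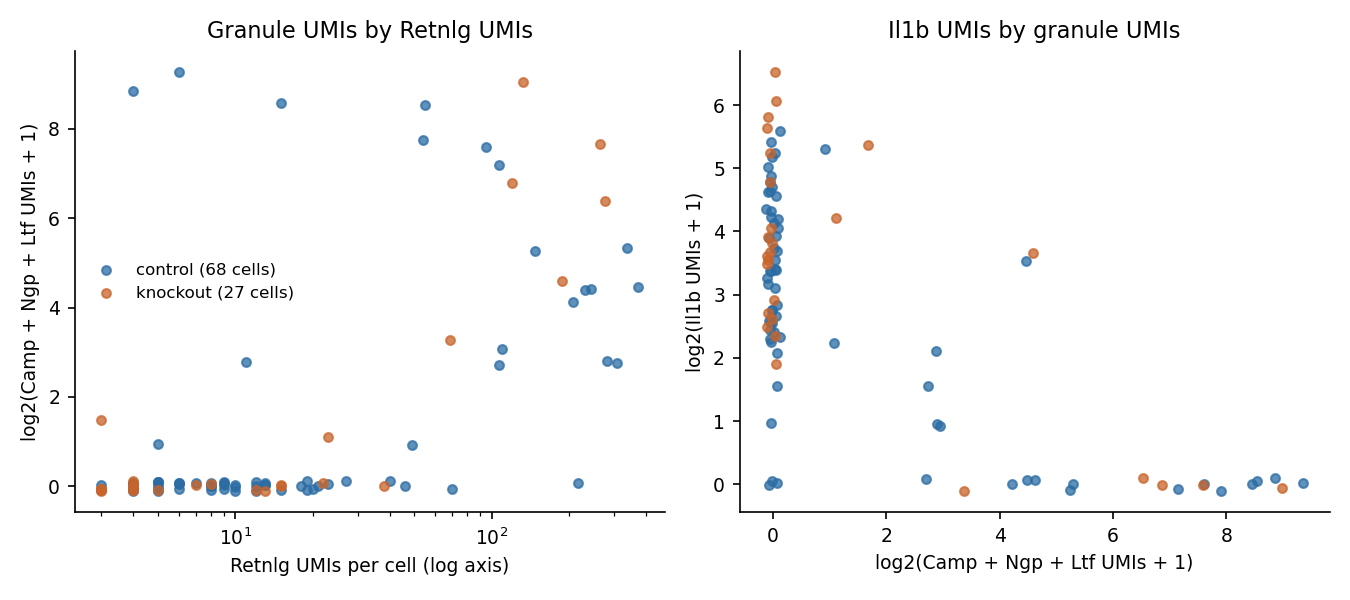
Each point is 1 Retnlg-high neutrophil (control blue, 68 cells; knockout orange, 27 cells). Left, log2 of the summed Camp, Ngp and Ltf UMIs plus 1 against Retnlg UMIs on a log axis; right, log2 of Il1b UMIs plus 1 against the same granule sum, with points shifted slightly so that they can be told apart. Cells with a granule UMI lie mostly at 100 or more Retnlg UMIs, and Il1b is at 0 in 12 of 13 control and 4 of 5 knockout cells with 10 or more granule UMIs.

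Members with a granule UMI held more transcripts of other specific granule genes, and of some late granule genes such as Mmp8, and fewer of cytokine, stress and survival genes. The 3 genes chose this division, so it is described with no test, and ratios are log2 values with 1 UMI added to each sum. Interleukin 1 beta (Il1b) stood at 779 CPM in granule-bearing control members (593 to 1005) and at 6833 CPM in the others (6315 to 7381). In knockout it stood at 2186 CPM (1701 to 2766) and 11672 CPM (10606 to 12815). The log2 ratios were -3.11 and -2.40. Il1b was at 0 in 13 of 20 and 5 of 8 granule-bearing members, against 3 of 48 and 0 of 19 of the others. Per cell the others held 0 to 51 Il1b UMIs in control (median 10) and 3 to 85 in knockout (median 12), so even the deeper granule-bearing cells mostly lacked what the shallower cells held.

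Lcn2, which encodes the iron-scavenging granule protein lipocalin 2, was higher in granule-bearing members, at 9056 against 934 CPM in control and 7255 against 371 CPM in knockout (log2 3.26 and 4.19). Mmp8, neutrophil collagenase, was at 1756 against 276 CPM and 2851 against 106 CPM (2.63 and 4.44). Ly6g, the surface antigen by which mouse neutrophils are commonly sorted, was at 700 against 138 CPM in control, and in knockout at 887 CPM against 26.5 CPM, the latter from 1 UMI (2.26 and 4.11). The nuclear envelope gene Syne1 (3.87 and 3.88), the Ly6 family gene Ly6c2 (3.06 and 3.96), Ifitm6 (4.0 and 2.43), Wfdc21 (2.39 and 2.28), lysozyme Lyz2 (1.96 and 2.80), the peptidoglycan recognition gene Pglyrp1 (1.66 and 2.30) and annexin Anxa1 (1.47 and 1.96) were higher in both libraries. Chil3, a chitinase-like gene of immature neutrophils, was found in 7 control and 3 knockout members, all granule-bearing.

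Lower in granule-bearing members of both libraries were the cytokine signalling inhibitor Socs3 (-3.56 and -3.99), the TNF-induced gene Tnfaip2 (-2.77 and -3.04), the chemerin-binding receptor Ccrl2 (-2.45 and -3.65), the transcription factor Zeb2 (-3.04 and -2.42), the platelet-activating factor receptor Ptafr (-2.32 and -3.16) and the interleukin 1 receptor accessory gene Il1rap (-2.38 and -2.20). Ptgs2, the inducible cyclooxygenase, was lower by 2.23 on the log2 scale in control, and in knockout it was at 0 UMIs in granule-bearing members. Over all genes with at least 20 UMIs in each library, 3.19% (16 of 502) were higher past 2-fold in both libraries and 21.9% (110 of 502) were lower.

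By list, 6 of 7 measured specific granule and immature neutrophil genes were higher past 2-fold in granule-bearing control members (median log2 3.12, background 8.33%) and 3 of 4 in knockout (3.04, background 5.41%). Of the secretory and cytokine genes, 11 of 13 were lower in control (median -1.54, background 30.3%) and 13 of 14 in knockout (-2.27, background 36.3%). Gelatinase granule and late maturation genes were mixed, with 6 higher and 2 lower of 14 in control (median 0.71) and 7 higher and 4 lower of 13 in knockout (1.22). The dissociation stress list was lower as well, in 9 of 15 genes in control (median -1.11) and 10 of 13 in knockout (-1.66), and its part in the cytokine values was not tested. Apoptosis and survival genes were lower in 4 of 5 (-1.12) and 4 of 4 (-2.39), and interferon gamma genes in 3 of 3 (-1.80) and 3 of 5 (-1.16). The medians over all genes measured were -0.49 and -0.64.

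Transcripts of the azurophil stage and of the division genes Mki67 and Top2a were at or near 0 in members. The azurophil list of 6 genes, which includes myeloperoxidase (Mpo), summed to 2 UMIs in 1 control member and 0 UMIs in every knockout member. Mki67 and Top2a, which mark dividing cells, had 0 UMIs in all 95 members, which allows up to 17.6 CPM in control and 43.3 CPM in knockout. Azurophil transcripts were found among the Retnlg-low neutrophils. There, 16 control and 2 knockout cells held 10 or more granule UMIs, and they were deeper (control range 2891 to 25711 UMIs, median 9810; knockout 7428 and 18165). These control cells held Camp at 50197 CPM, Elane (neutrophil elastase) with 877 UMIs, Mmp8 at 16.1 CPM and Cxcr2 at 80.3 CPM, with 0 UMIs of Il1b and 3 of Retnlg. Granule-bearing members held Camp at 13769 CPM, Mmp8 at 1756 CPM and Cxcr2 at 884 CPM in control.

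**Figure D2:**
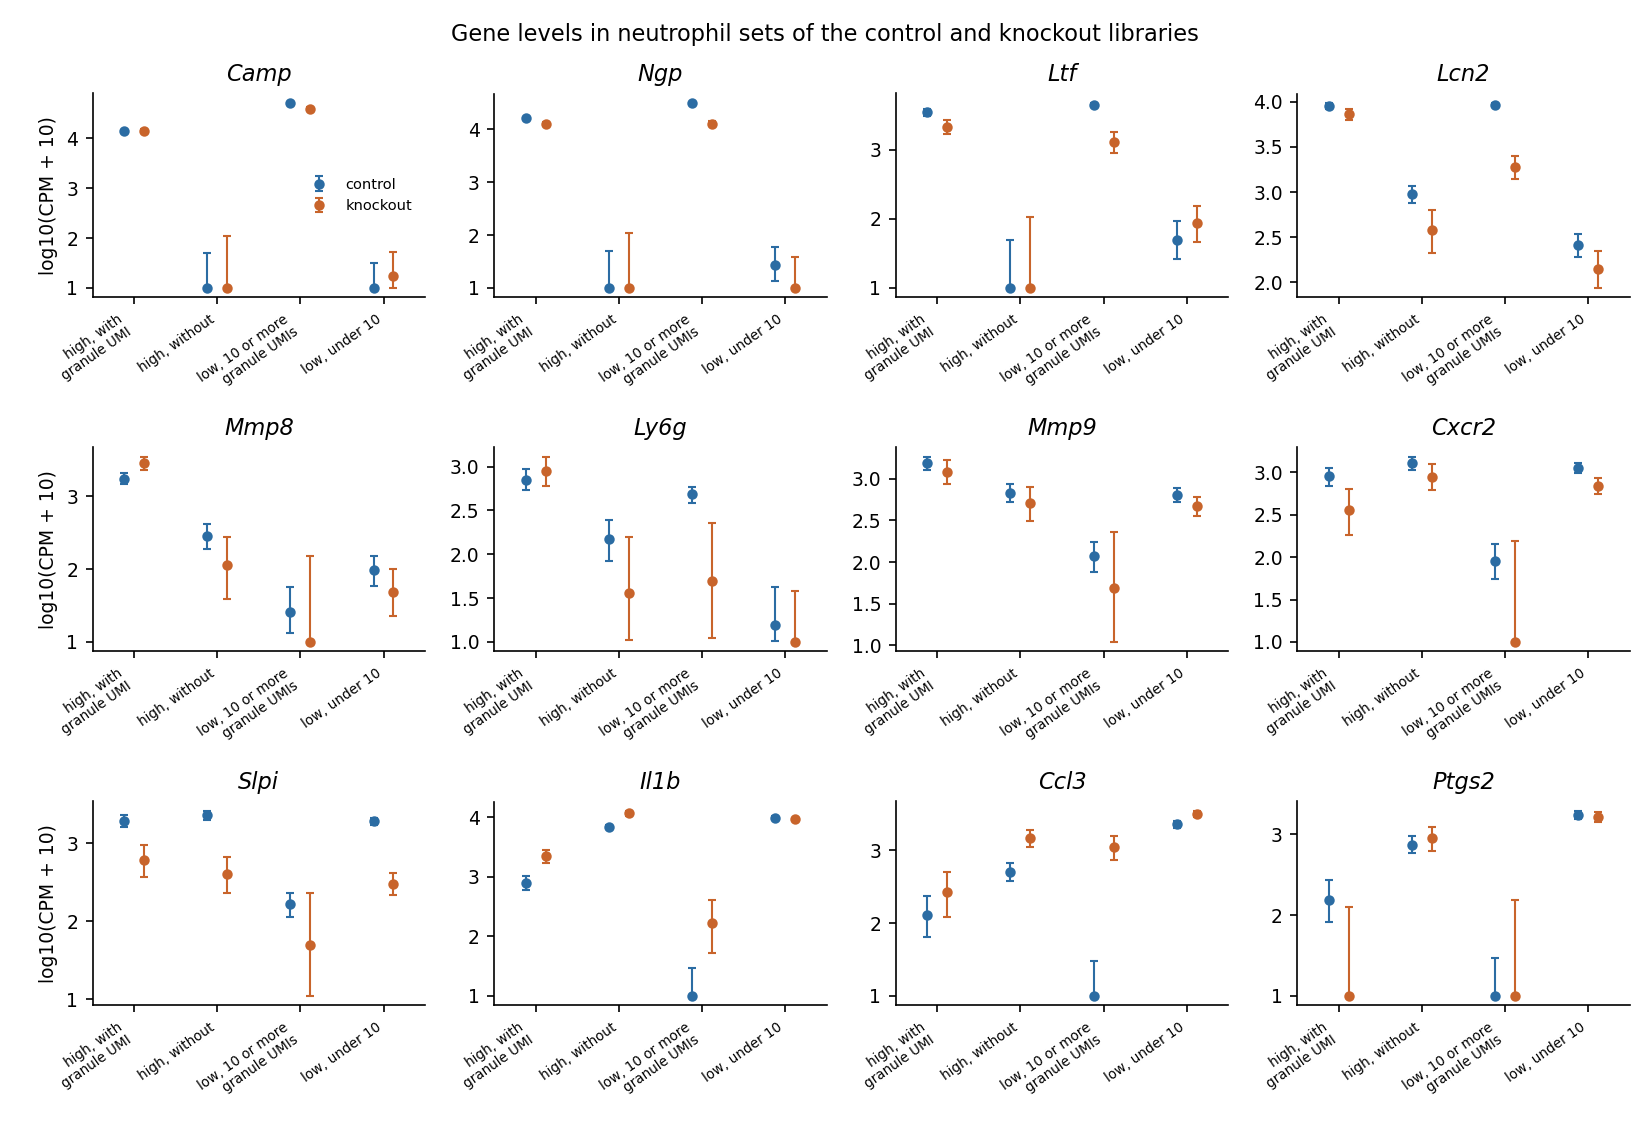
Levels of 12 genes as log10 of CPM plus 10 (summed UMIs of the cells of a set), in 4 neutrophil sets of the control (blue) and knockout (orange) libraries, with exact 95% intervals for counting error; a point at 1 is a sum of 0 UMIs. Camp, Ngp and Ltf are high in granule-bearing cells, Mmp8 is highest in granule-bearing Retnlg-high cells, and Il1b, Ccl3 and Ptgs2 are higher in the sets with few or no granule UMIs.

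Il1b, Mmp8, Ccl4 and Cd274 differed along the Retnlg count within the members, in 3 ranges chosen after the values were seen. Members with 3 to 9, 10 to 39 and 40 or more Retnlg UMIs numbered 30, 19 and 19 in control and 14, 7 and 6 in knockout, with median depths of 1687.5, 1927 and 3982 UMIs and 1708.5, 2009 and 4432.5 UMIs. A granule UMI was held by 3, 2 and 15 of these control members and by 1, 1 and 6 of these knockout members. The ranges thus overlap with the granule division above and are not a separate contrast. Il1b stood at 7367, 5104 and 959 CPM over these ranges in control and at 15559, 5567 and 431 CPM in knockout. Mmp8 stood at 308, 355 and 1804 CPM in control and 37.5, 204 and 3230 CPM in knockout. Ccl4, a macrophage inflammatory chemokine, stood at 2341, 2064 and 14.3 CPM and at 6973, 4006 and 0 CPM. Cd274, which encodes the checkpoint ligand PD-L1, stood at 363, 222 and 0 CPM and at 1800, 1358 and 0 CPM. Cxcr2 did not follow this order in control, at 1034, 1154 and 1103 CPM. In knockout Cxcr2 fell along the ranges, at 975, 543 and 359 CPM, from 26, 8 and 10 UMIs. Camp and Ngp did not rise or fall in order in control either. There Camp stood at 9237, 3994 and 5069 CPM and Ngp at 8493, 3084 and 8979 CPM. In knockout Camp had 0, 0 and 448 UMIs and Ngp 1, 1 and 399 UMIs over the ranges. Nearly all their transcripts thus lay in the highest range there. In control the Camp levels of the lower ranges rest on single cells. Of the 509 Camp UMIs at 3 to 9 Retnlg UMIs, 1 cell held 278 and another 231. At 10 to 39 Retnlg UMIs, 1 cell held all 180.

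Against Retnlg-low neutrophils, members held more late granule transcripts and fewer inflammatory ones. The rule used this contrast, so it is a description from which nothing is read. Past 2-fold in both libraries, 1.81% of genes were higher (31 of 1712) and 5.49% lower (94 of 1712). Mmp8 stood at 935 CPM in members against 49.9 CPM in control (log2 4.16, 3.52 to 5.02) and at 1357 against 32.2 CPM in knockout (5.15, 4.12 to 7.05). Padi4, the histone-citrullinating enzyme of neutrophil extracellular traps, had ratios of 2.17 and 2.88, the glucose transporter gene Slc2a3 had 1.96 and 1.64, and the formyl peptide receptor gene Fpr2 had 1.69 and 1.24. The chemokine gene Ccl3 stood at 329 against 1086 CPM and 910 against 2808 CPM (-1.70 and -1.61). Tnf had ratios of -1.57 and -1.66, the transcription factor gene Creb5 -2.45 and -2.61, the lectin receptor gene Clec4n -3.26 and -1.77, and the mitochondrial superoxide dismutase gene Sod2 -1.40 and -1.64.

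The Retnlg-low comparison set is itself mixed, because the granule-rich cells above fall into it. Set against the 102 control and 65 knockout Retnlg-low cells with under 10 granule UMIs, a comparison chosen after the values were seen, 1.83% of genes were higher in members of both libraries (28 of 1534) and 6.32% lower (97). This filter was applied to the Retnlg-low cells only, and 13 control and 5 knockout members with 10 or more granule UMIs stayed in. Higher levels in members of genes that go with granule UMIs are thus partly built into this comparison. Lcn2 then had log2 ratios of 4.17 and 4.67, Ifitm6 3.34 and 3.52, and Lyz2 2.87 and 3.46. Cd177, a neutrophil surface glycoprotein gene, had 2.10 and 2.67. Ly6g had 5.10 in control, and in knockout, where the Retnlg-low cells were at 0, it was higher by at least 4.18 on the log2 scale. The adhesion ligand gene Icam1 (-2.40 and -2.02), Ccl3 (-2.75 and -1.77) and Ptgs2 (-1.86 and -1.74) were lower. Of the secretory and cytokine genes, 14 of 18 were lower past 2-fold in control (median -1.62, background 16%) and 8 of 16 in knockout (-0.85, background 15.4%), against medians over all genes of -0.21 and -0.19.

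Between genotypes, summed members of the knockout library held more transcripts of most listed interferon-stimulated and cytokine genes. They held fewer transcripts of other genes such as Slpi, Fpr1 and Ifitm1. Of 1750 genes with at least 20 UMIs over both libraries, 8.23% (144) were more than 2-fold higher in knockout and 8.29% (145) more than 2-fold lower. These are differences between 2 pooled libraries and have no replicate check. In bulk sums such as these, more cells with a transcript and more transcript per cell cannot be told apart, so the number of cells with a UMI is given beside the main genes.

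Rsad2 (chr12:26442746-26456452, minus strand), which encodes the antiviral protein viperin, had 16 UMIs in 4 of 68 control members (0 to 12 per cell) and 151 UMIs in 10 of 27 knockout members (0 to 70 per cell). That was 94.1 CPM (53.8 to 153) against 2180 CPM (1846 to 2557), a log2 ratio of 4.46 (3.79 to 5.38). The highest cell held 75% of the control and 46.4% of the knockout UMIs. Without the highest cell of each library the ratio was 5.40, just above that interval. Most members of both libraries lacked the gene, and the knockout sum came from 10 cells.

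Other interferon-stimulated genes followed. The interferon-induced chemokine gene Cxcl10 had 1 UMI in control and 42 UMIs in 6 cells in knockout (log2 5.72, 4.13 to 12.02). The ISG15 protease gene Usp18 had 1 and 19 (4.62), Ifit1 had 4 and 24 (3.62) and the exonuclease gene Isg20 had 4 and 19 (3.30). In knockout these 3 were found in 4, 5 and 6 cells. The highest knockout cell held 57.9% of the Usp18, 33.3% of the Ifit1 and 57.9% of the Isg20 UMIs. Isg15 had 55 UMIs in 21 cells in control and 66 UMIs in 9 cells in knockout (1.55). Its share of cells was 30.9 and 33.3%, or 21.2 and 33.3% after thinning, and the intervals of these shares overlapped. Of 12 measured type I interferon genes, 8 were higher past 2-fold and 0 lower, with a median of 1.69 against 0.02 over all genes. The summed list stood at 2235 CPM in control members (2016 to 2472) and 8186 CPM in knockout members (7526 to 8889), while over all kept cells it stood at 2906 and 4392 CPM. Per cell the sum ran from 0 through a median of 1348 to 14196 per 1000000 in control and from 0 through 2589 to 53740 in knockout. It was at 10000 or more in 2 of 68 control and 7 of 27 knockout members, so the groups overlapped over most of their range and differed at the upper end. A single knockout cell held 217 of the 567 list UMIs, and without the highest cell of each library the median was 1.35. In members without a granule UMI alone it was 2.26. Of 9 measured interferon gamma genes 5 were higher, median 1.30, among them the guanylate-binding protein gene Gbp2 (10 and 23 UMIs, 2.42). The interferon-induced transmembrane gene Ifitm1, on neither list, went the other way. It stood at 1418 CPM in control members (241 UMIs) and 635 CPM in knockout members (44 UMIs).

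**Figure D3:**
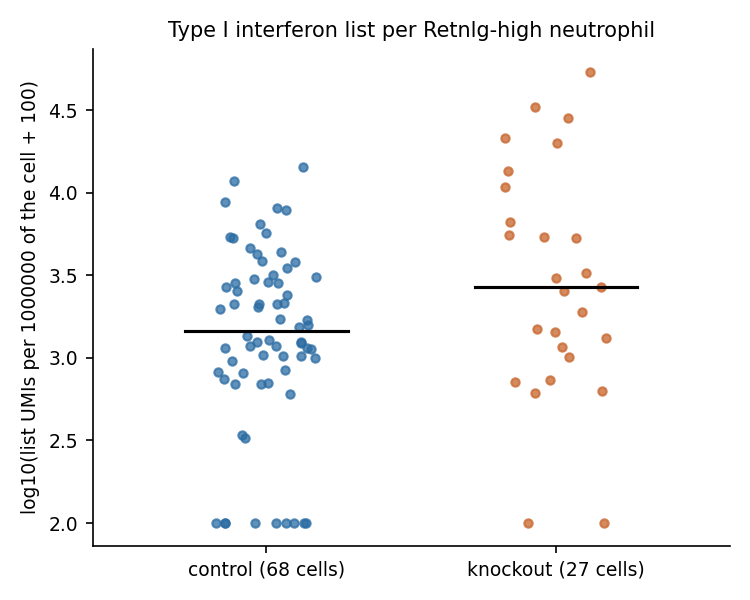
Summed UMIs of the type I interferon list per 1000000 UMIs of the cell, as log10 of the value plus 100, for each Retnlg-high neutrophil of the control (68 cells) and knockout (27 cells) libraries; the line is the median over cells and points at 2.0 are cells without a list UMI. The cells overlap, and 7 knockout against 2 control cells reach 10000 per 1000000 or more.

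The secretory and cytokine list had 8 of 16 measured genes higher past 2-fold in knockout members and 0 lower, with a median of 0.98. The summed list stood at 16270 CPM in control and 27619 CPM in knockout members, but the median over cells was 12107 per 1000000 in control (0 to 146620) and 10955 in knockout (497 to 115298). The median cell was thus not higher in knockout, and the higher sum came from cells above the median. Il1rn, the gene of the interleukin 1 receptor antagonist, stood at 206 CPM in control (35 UMIs, 18 cells) and 1155 CPM in knockout (80 UMIs, 12 cells), log2 2.47 (1.90 to 3.1). Ccl3 stood at 329 and 910 CPM (1.46), Ccl4 at 1312 and 3537 CPM (1.43) and the growth factor gene Csf1 at 76.5 and 332 CPM (2.07). Il1b stood at 4135 and 7349 CPM, a log2 ratio of 0.83, short of 2-fold. Without the highest cell of each library the list median was 0.79, and among members with 0 C1q and keratin UMIs (43 control, 17 knockout) it was 0.36, so the size of this difference moved with single cells and with the filter.

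Of the tumour neutrophil genes, 7 of 21 were higher and 1 lower, median 0.68. Cd274 was at 176 CPM in control (30 UMIs in 7 cells, 0 to 12 per cell) and 982 CPM in knockout (68 UMIs in 10 cells, 0 to 20 per cell), log2 2.45 (1.84 to 3.15). The stress-induced transcription factor gene Atf3 stood at 153 and 534 CPM (1.79) and the early response gene Ier3 at 794 and 1747 CPM (1.14). Both belong also to the dissociation stress list, of which 3 of 17 genes were higher, median 0.43. The part of tissue dissociation in these values was not tested. The tissue factor gene F3 had 8 UMIs in 2 control cells and 25 UMIs in 4 knockout cells (2.83). The highest cell held 62.5% and 68% of these.

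Slpi, the gene of a secreted inhibitor of leukocyte proteases, had the lowest ratio of the genes on the granule, receptor, cytokine and interferon lists. It had 363 UMIs in 53 of 68 control members (0 to 26 per cell, median 4) and 34 UMIs in 13 of 27 knockout members (0 to 6, median 0). That was 2135 CPM (1921 to 2367) against 491 CPM (340 to 686), a log2 ratio of -2.08 (-2.67 to -1.61). The highest cell held 7.16% and 17.6% of these UMIs, so no single cell carried the difference. The formyl peptide receptor gene Fpr1 stood at 341 and 72.2 CPM (58 and 5 UMIs, -2.0), the coagulation factor gene F5 had 43 and 3 UMIs (-2.16), the kinase genes Cdk17 and Csnk1g1 had 44 and 1 (-3.20) and 23 and 0, and the selectin ligand gene Selplg stood at 459 and 202 CPM (-1.10). Csnk1g1 was lower by at least 1.64 on the log2 scale.

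Some granule and receptor genes lay past 2-fold between genotypes, where 8.23% of all measured genes were higher and 8.29% lower. Of 10 specific granule genes 0 were higher and 2 lower (median -0.35): Chil3 at -1.18, from 38 and 6 UMIs, and the transporter gene Abca13 at -1.66, from 30 and 3 UMIs. Camp was at 0.08 (-0.09 to 0.24), Ngp at -0.32 and Lcn2 at -0.37. Ltf, from 262 and 68 UMIs, had an interval of -1.06 to -0.26. These values rest on single cells: 1 knockout member held 269 of the 448 Camp UMIs. Without the highest member of each library Camp was at -0.70, Ngp at -0.69, Lcn2 at -0.66 and Ltf at -2.16. Each of these lay outside the gene's main interval, and the list median was then -0.69. Of 14 gelatinase granule genes 1 was higher and 2 lower (median -0.07), and of 20 receptor genes 2 were higher and 2 lower (0.06). Cxcr2 stood at 1094 and 635 CPM (-0.76, -1.29 to -0.30), and its share of cells was 69.7 and 51.9% after thinning. The 6 NADPH oxidase genes had a median of -0.37 with 0 past 2-fold, and the transcription factor (0.08), MHC class I (-0.05) and hypoxia and glycolysis (-0.07) medians lay near that of all genes. The apoptosis and survival median was 0.42 with 1 of 6 genes higher, and that of 3 measured proliferation genes was -0.18.

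**Figure D4:**
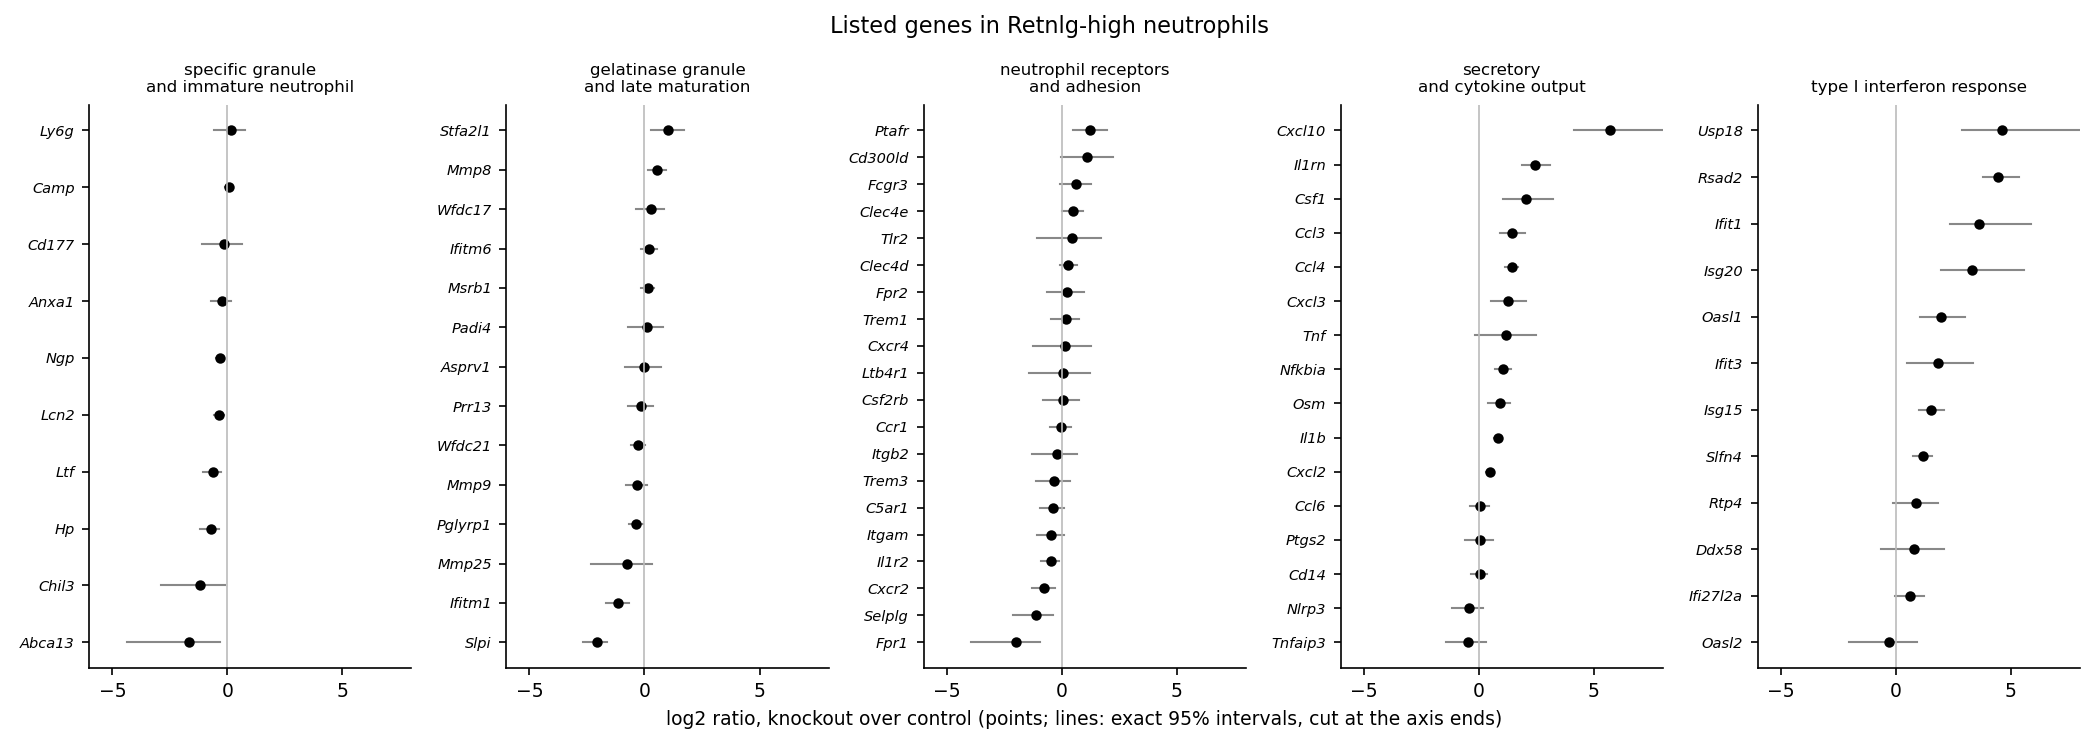
Log2 ratio of knockout over control in Retnlg-high neutrophils for each measured gene of 5 lists (points), with exact 95% intervals for counting error (lines, ended at the axis limits). Type I interferon genes lie mostly to the right of 0, with Rsad2 at 4.46, specific granule genes lie near or left of 0, and Slpi and Fpr1 lie furthest left in their lists.

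Genes that led the genotype comparison were also read in the Retnlg-low neutrophils with under 10 granule UMIs. These are other cells of the same 2 libraries, so they are no replicate of the genotype. Rsad2 stood there at 815 CPM in control and 3863 CPM in knockout, Cd274 at 741 and 2390 CPM, Il1rn at 890 and 1511 CPM, Cxcl10 at 149 and 517 CPM, Slpi at 1923 and 293 CPM, Fpr1 at 155 and 38.6 CPM, and Cxcr2 at 1108 and 686 CPM. In kept cells that were not neutrophils Rsad2 stood at 48.5 and 99 CPM and Slpi at 90.4 and 123 CPM, so Slpi was lower in knockout in the neutrophil sets and higher in the summed other cells.

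Gm50022, a predicted gene, had 0 UMIs in the 68 control members and 23 UMIs in 13 of 27 knockout members, higher by at least 4.23 on the log2 scale. Its level was 0 and 332 CPM in members, 0 and 285 CPM (37 UMIs) in Retnlg-low neutrophils with under 10 granule UMIs, and 0 and 1.19 CPM (162 UMIs in 110 of 10714 cells) in the summed kept cells other than neutrophils. In knockout it was thus far higher in both neutrophil sets than in the other cells, which were not separated by type. The part of free neutrophil RNA in the low value of the other cells was not tested. Over all kept control cells Gm50022 stood at 0.0175 CPM, so it was not wholly absent from that library. Its control UMIs lay in the Retnlg-low cells with 10 or more granule UMIs, which are outside the sets above.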

How the data were processed

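The deposited matrices hold raw UMI counts per gene and cell, which the authors made with Cell Ranger. The submitters' processing notes name version 3.1.3 and build mm10, and per the file headers the version was 8.0.0. Of 32285 genes in the files, 32158 matched the annotation used for coordinates. Barcodes under 500 genes or over 15% mitochondrial UMIs were dropped, and members and Retnlg-low cells were taken by the rule on raw UMIs. The members, gene lists and rules were chosen with earlier results of these data known.

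UMIs were summed over the cells of a set and divided by the set's total (CPM). Log2 ratios add 1 UMI to each sum, need at least 20 UMIs over the sets compared, and carry exact conditional 95% intervals without that addition. Shares carry Clopper-Pearson intervals, and a ratio against 0 UMIs was bounded by setting 3 UMIs there. Genes were named by size: the 12 furthest in each direction with a UMI in at least 10% of cells of the higher set, a level at least 0.5 times that of all kept cells of that library and an interval excluding no difference, plus genes of the lists. Genes of the rule, mitochondrial, ribosomal and Y-linked genes were not named. Lists need 3 measured genes. The Retnlg ranges were chosen after their values were seen. Doublets were marked with Scrublet (scanpy 1.11.5, expected rate 0.08) and not removed from the main values. The ratio code was tested on simulated data. Python 3.11.15, numpy 2.4.6, scipy 1.17.1 and pandas 2.3.3 were used. One gene of the receptor list is not reported here and was left out of its counts.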

Additional observations from a re-analysis of the deposited data

Results flagged for a closer look

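Ngp and Ltf lay on opposite sides of 0 in the 2 libraries when members were set against all Retnlg-low neutrophils. The log2 ratio of Ngp was -1.15 in control and 1.46 in knockout, and that of Ltf was -0.60 in control and 1.81 in knockout. The difference was not tested, since each genotype is 1 library. The granule-rich Retnlg-low cells, 16 in control and 2 in knockout, lie in the lower set of this ratio, and a single knockout member holds 75% of the Ltf UMIs of its library's members.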

How the results depend on the processing

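The 3 share ratios stayed within their main intervals under every alternative run: other Retnlg, S100, gene and C1q or keratin minimums, doublets removed, thinning, and members with shared barcodes left out. Counts of genes past the fold moved by over 1.5 times as follows. For knockout over control (144 higher, 145 lower) they were 38 and 36 with at least 50 UMIs, 36 and 52 past 3-fold, 57 higher with at least 10 Retnlg UMIs, 82 lower with C1q and keratins at 0, and 39 lower with a pseudocount of 5. For members over Retnlg-low cells (31 higher, 94 lower) they were 10 and 51 with at least 50 UMIs, 6 and 32 past 3-fold, 9 and 38 with C1q and keratins at 0, 150 lower with at least 10 Retnlg UMIs, and 49 lower with a pseudocount of 5.
List medians for knockout over control moved beyond the main value's band as follows. As a mean over cells, specific granule was -0.61, gelatinase -0.37, cytokine 0.75 and stress 0.067. With at least 50 UMIs, cytokine was 0.83, tumour neutrophil 0.53, receptors -0.11, type I interferon 1.36, interferon gamma 0.96 and stress 0.29. With C1q and keratins at 0, gelatinase was -0.27, cytokine 0.36, tumour neutrophil 0.52, type I interferon 1.21, hypoxia -0.35 and stress 0.0947. In members without a granule UMI, specific granule was -0.82, gelatinase -0.49, receptors -0.26, type I interferon 2.26 and stress 0.20. Without the highest member of each list, specific granule was -0.69, gelatinase -0.20, cytokine 0.79 and type I interferon 1.35.
Single genes that changed sign were, for knockout over control, Mmp8 at -0.13 as a mean over cells, and Ngp at 0.50 and Lcn2 at 0.0551 with at least 10 Retnlg UMIs. For members over Retnlg-low control cells they were Ltf at 0.27, Wfdc17 at -0.13 and Clec4e at -0.27 as a mean over cells, and Wfdc17 at -0.63, Asprv1 at -0.0496 and Clec4e at -0.21 with C1q and keratins at 0. With at least 10 Retnlg UMIs, Msrb1 in knockout was at -0.0945. Against Retnlg-low cells with under 10 granule UMIs, Chil3 was 3.74, Abca13 1.53, Ltb4r1 0.18, Wfdc17 -0.46, Clec4e -0.63, Asprv1 -0.16, Msrb1 -0.022 and Cxcr2 -0.018. The cause was not tested for these changes, except that the last set leaves out the 16 granule-rich control cells by construction. The Retnlg-low comparison set with under 10 granule UMIs, the removal of the highest member and that of shared barcodes were chosen after seeing the data.
No paired analysis was possible because each genotype had 1 library, and for the same reason no replicate could be left out. With 27 knockout members of median 2009 UMIs, a gene with 0 UMIs may still reach 43.3 CPM, and many named ratios rest on under 50 UMIs.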
